A study of Rattus norvegicus with 6 samples.

Results

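The genes described here were listed above 0 in all 3 libraries of RCS cells and at 0 in all 3 libraries of rib tissue. The rule left out symbols starting with Hox, Tex, rno-mir or Hist, and 128 of 27217 genes in the table met it (0.47%). They are called RCS-only genes below, a name for the rule alone. RCS cells are a chondrocyte-like line grown from a rat chondrosarcoma, a cartilage tumour, and the reference was rib tissue of neonatal rats. Total RNA of 3 RCS cell libraries and 3 rib tissue libraries was sequenced with standard Illumina library preparation. No treatment, genotype, strain or sex was given, and the RCS libraries are replicates of 1 cell line. Replicates are described as biological, but which cultures or animals they came from is not stated, so p-values measure the spread between these libraries only.

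Levels are normalized counts, meaning reads per gene after scaling by a library-wide factor. Gene length was not taken into account, and no level is compared between genes as an amount of RNA per length. Each RCS library held an estimated 6000000 to 8520000 gene reads, and each rib library 5320000 to 7490000. Of 8 chondrocyte markers, all were above 0 in every library of both groups, with Acan, the main cartilage proteoglycan, at 18530, 15040 and 12430 normalized counts in RCS cells and 12000, 11000 and 15200 in rib tissue. Of the 8, 2 were higher in RCS cells and 2 lower, with the cartilage collagen gene Col2a1 among the lower ones. Under quantile normalization 5 were higher, Acan among them (2.32), and 1 lower, and the higher count was 1 without RCS cells replicate 1 or 2 or rib tissue replicate 1 or 2. All 15 markers of muscle, bone, connective tissue, vessels, blood, fat and nerve sheath were lower in RCS cells, and their mean log2(normalized count + 1) was 2.42 to 2.92 in RCS cells against 9.59 to 10.35 in rib tissue. The vessel marker Cdh5, the leukocyte marker Ptprc and the globin gene Hba-a2 were at 0 in every RCS library. In bulk samples like these, fewer cells of a type and less RNA per cell cannot be told apart.

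Cartilage cells run a matrix programme driven by SOX transcription factors, and RCS cells keep much of it. Regulators of early patterning are mostly silent outside the tissues they pattern. They include homeodomain, zinc finger and helix-loop-helix factors that give regions of the embryo, the brain and the limb bud their identity. Germ cell genes and epithelial products form other such classes, and tumour lines of many origins are known to transcribe some of them.

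The membership was set by the levels themselves, so no test of RCS cells against rib tissue is given for any RCS-only gene and their values are a description. A value of 0 in the table means a normalized count of 1 or less, and that limit stood for 1.84, 1.93 and 1.41 reads in the 3 RCS libraries. In the rib libraries it stood for 1.32, 0.975 and 1.0 reads. A lone read was therefore listed as 0 in every library except rib tissue replicate 2. Without rib tissue replicate 2 the rule found 197 genes in place of 128. Of the 80 entries with a plain ribosomal protein symbol, 6 were listed at 0 in every rib library, 5 of them at 0 in all 6 libraries. A listed 0 can thus occur at genes that every cell uses, and each library's own value is given below in place of a mean.

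Most RCS-only genes stood at low levels in RCS cells. The median RCS-only gene had 6.55 normalized counts as the median over the RCS libraries (25th to 75th percentile 2.72 to 22.5), against 189 (40.7 to 434) over all 13838 genes above 0 in every RCS library. Of the 128 genes, 43 (33.6%) reached 10 normalized counts in every RCS library, against 85.7% of all genes so detected, and 9 reached 100. At the low end, 44 genes rested on at most 20 estimated reads over the 3 RCS libraries together, and 13 on at most 10. All 128 genes together took 0.0746% to 0.0874% of the normalized counts of an RCS library.

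**Figure D1:**
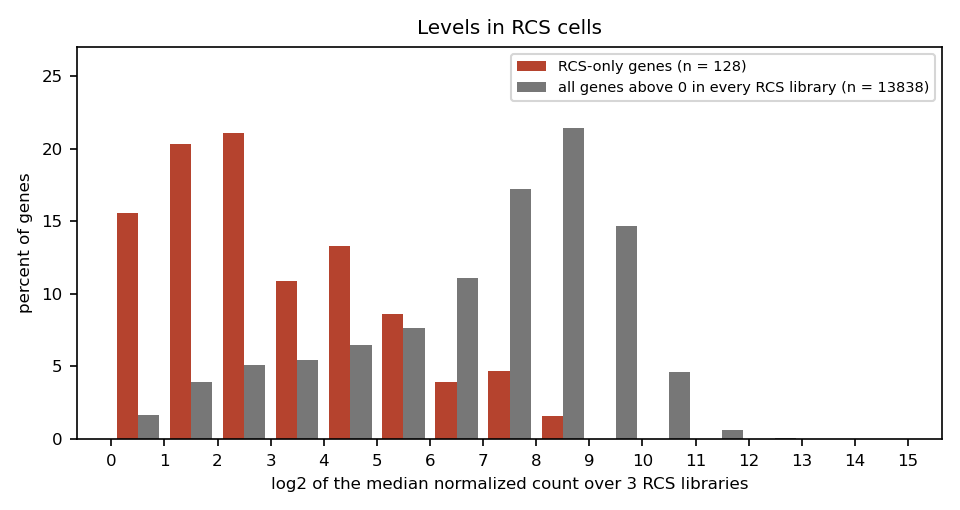
Share of genes (percent, vertical axis) by the log2 of their median normalized count over the 3 RCS libraries (horizontal axis, bins 1 wide), for the 128 RCS-only genes and for all 13838 genes above 0 in every RCS library. The RCS-only genes crowd at the low end, with a median of 6.55 against 189 normalized counts.

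Among genes that were high in all 3 RCS libraries, most had similar levels in them. Over the 43 genes with at least 10 normalized counts in every RCS library, the highest library exceeded the lowest by a median factor of 1.31, and 34 genes stayed within 1.5. The same factor was 1.17 over 8045 other genes between the same limits of level, but levels were not matched within those limits. The least even of the 43 was Tmem92, a transmembrane protein gene, with 17.5, 28.6 and 40.1 normalized counts in RCS cells replicates 1 to 3, a factor of 2.29. The limit of 10 itself leaves out genes that fall in 1 RCS library. Examples are NEWGENE62 (6.49, 36.8 and 36.7, a factor of 5.67) and RGD1565655 (13.9, 17.4 and 4.25, a factor of 4.09). RCS cells replicate 3 held the highest value at 66 of the 128 genes, replicate 2 at 34 and replicate 1 at 28. The same count was not made over all genes above 0 in every RCS library. Replicate 3 also had the fewest estimated reads of the RCS libraries (6000000), and what sets the count was not tested. The converse set, from which no symbols were left out, held 1947 genes at 0 in every RCS library and above 0 in every rib library. Of these, 1108 had at least 10 normalized counts in every rib library. With the left-out symbols kept, the RCS-only rule found 134 genes.

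Just inside the rule stood Hyal6, a hyaluronidase gene, with 1.09, 1.04 and 1.42 normalized counts in the RCS libraries. Slco1a2, an organic anion transporter gene, had 2.72, 1.04 and 1.42, and Dll3, a Notch ligand gene, had 2.99, 2.59 and 1.02. These are the counts of a few reads each. Another 126 genes were above 0 in every RCS library and in exactly 1 rib library, and rib tissue replicate 2 was that library for 69 of them, at 1 estimated read for 38. Among the highest of these near misses was Hmx2, a homeodomain factor of the inner ear and hypothalamus, with 174, 183 and 182 normalized counts in RCS cells and 0, 0 and 2.0 in rib tissue. It is of the same kind as the factors described next. The phosphatase gene Ptpn20b (90.1, 97.8 and 116 in RCS cells, and 2.27, 0 and 0 in rib tissue), the interferon-induced gene Oas1a (90.6, 95.2 and 98.0, and 0, 1.03 and 0) and Gm239 (75.2, 88.2 and 109, and 0, 0 and 1.76) were also among the highest near misses.

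Transcription factors of embryonic patterning formed the most recognizable class. By roles given after the names were seen, 11 of the 128 genes encode homeodomain factors and 8 other transcription factors. The word homeobox stood in the table's description of 6 RCS-only genes (4.69%), against 50 of 13756 genes above 0 in every RCS library (0.363%), with the same left-out symbols removed. This undercounts both sets, since the descriptions of Isl1 and Pou3f4, among others, do not hold the word. Of the 19 factors, 12 reached 10 normalized counts in every RCS library.

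Isl1 (ENSRNOG00000012556), a LIM homeodomain factor of motor neurons, pancreas, heart field and hindlimb bud, was the highest RCS-only gene with an ordinary symbol. It had 209, 208 and 237 normalized counts in RCS cells. Its paralog Isl2 (ENSRNOG00000015336), also a motor neuron factor, had 41.8, 46.2 and 38.8. Foxn4 (ENSRNOG00000000691), a forkhead factor of retinal and spinal interneuron precursors, had 129, 125 and 122. In each of these 3 genes the RCS libraries lay close together and every rib library was listed at 0.

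Dlx1 (ENSRNOG00000001520), a distal-less factor of forebrain interneurons and branchial arches, had 47.9, 52.4 and 56.0 normalized counts, and its neighbour Dlx2 had 8.23, 6.02 and 3.54. Dmbx1, a factor of the midbrain, had 40.1, 34.8 and 36.9. The forebrain and eye factor Six3 had 19.0, 16.8 and 19.8. Nkx2-3, known from gut and spleen mesenchyme, had 12.4, 15.5 and 18.4. These genes span a wide range of levels. The cortical factor Emx1 (8.74, 13.8 and 12.7), the neural POU factor Pou3f4 (10.3, 12.5 and 9.92), Nkx1-2 of the caudal embryo (8.73, 8.39 and 9.21) and Otx1 of the anterior brain (2.18, 6.66 and 6.21) were, with Dlx2, the homeodomain genes with fewer than 10 normalized counts in at least 1 RCS library.

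Among the factors of other families, Zscan10, a zinc finger gene of pluripotent cells, had 68.6, 61.7 and 57.5 normalized counts in the RCS libraries. Zic5, a zinc finger factor of the dorsal neural tube, had 35.1, 35.3 and 37.2. Hand2, a helix-loop-helix factor that sets the posterior limb bud and acts in heart and sympathetic neurons, had 30.3, 29.9 and 36.9. Etv2, the ETS factor that starts the endothelial and blood lineages, had 22.3, 19.0 and 24.4, while the endothelial marker Cdh5 was at 0 in every RCS library. Eomes, a T-box factor of mesendoderm and cortex, had 19.8, 19.1 and 12.1. The neural repressor gene listed as Helt-ps1 (11.7, 10.2 and 9.44) and the immediate early gene Egr4 (3.81, 3.80 and 2.83) were the lowest of the 8.

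**Figure D2:**
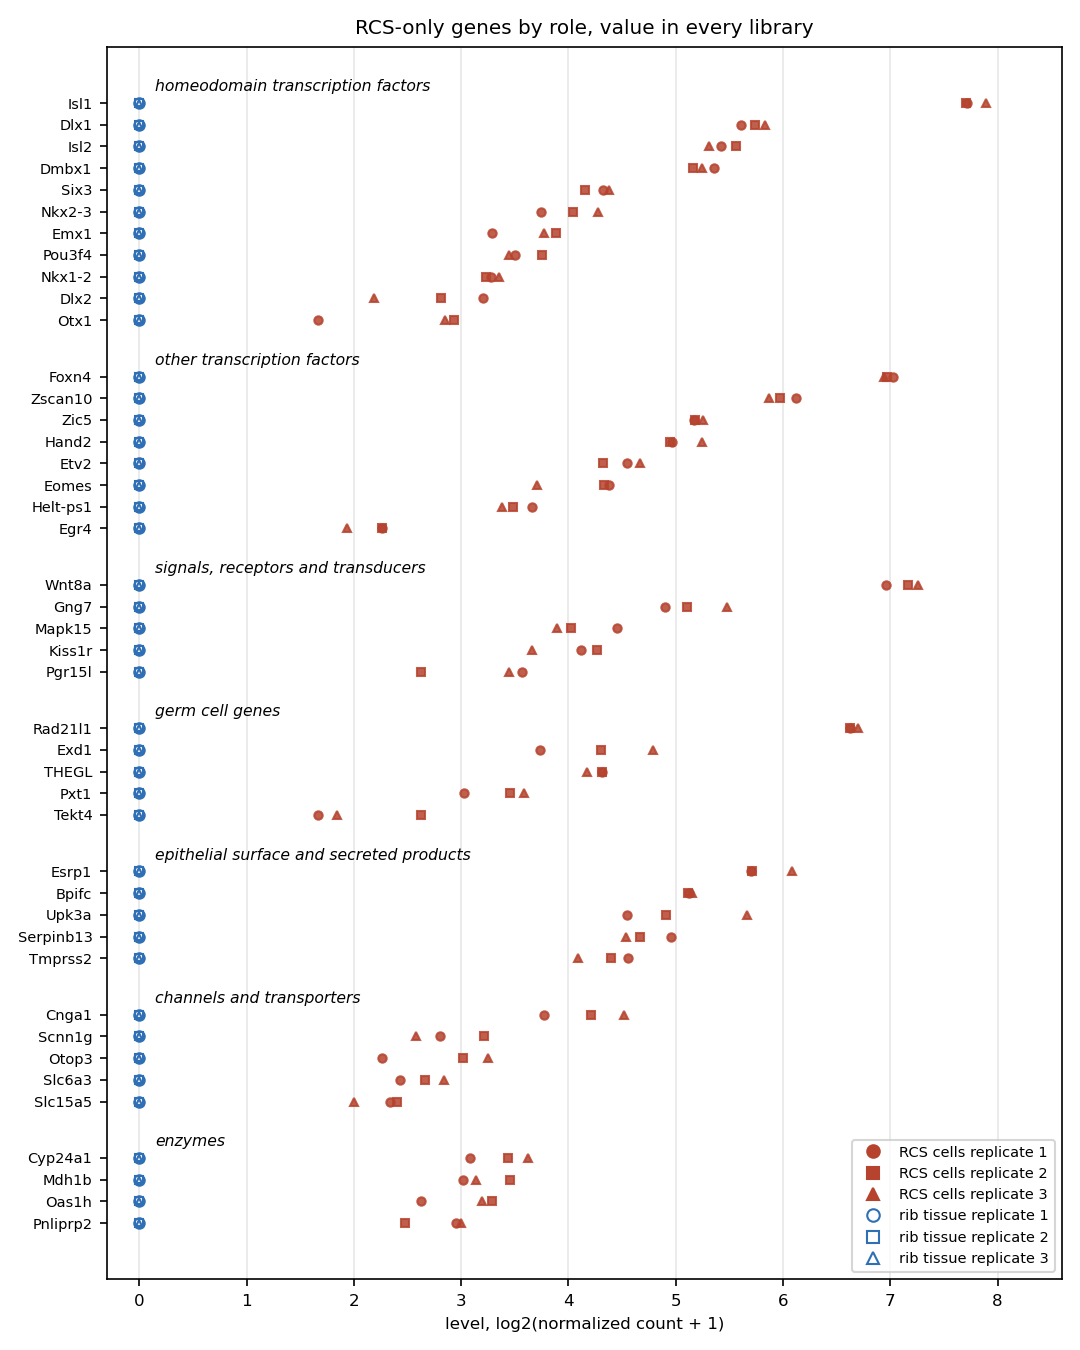
Level in every library as log2(normalized count + 1) on the horizontal axis for RCS-only genes grouped by role, with all 19 transcription factors and up to 5 of the highest genes in each of 5 other roles (signalling, germ cell, epithelial and secreted, channels and transporters, enzymes). Filled symbols are RCS cells and open symbols rib tissue, all of which sit at 0 by the rule, while Isl1, Foxn4 and Wnt8a lie farthest to the right among the genes drawn.

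The promoters of 4 RCS-only genes are shown because they span much of the range of CpG content found in the set. They are taken from RefSeq on build GRCr8, as 250 bases before to 50 bases after each annotated start, and were not placed on rn5, the build in the submitters' notes. The start that RCS cells use was not measured. Isl1 lies at chr2:49823393-49823692 (minus strand) with 21 CpG dinucleotides, Dlx1 at chr3:76763614-76763913 (plus strand) with 27, Foxn4 at chr12:48000007-48000306 (plus strand) with 8, and the epithelial gene Serpinb13 at chr13:23632970-23633269 (plus strand) with 1. Capitals mark each CpG.
Isl1: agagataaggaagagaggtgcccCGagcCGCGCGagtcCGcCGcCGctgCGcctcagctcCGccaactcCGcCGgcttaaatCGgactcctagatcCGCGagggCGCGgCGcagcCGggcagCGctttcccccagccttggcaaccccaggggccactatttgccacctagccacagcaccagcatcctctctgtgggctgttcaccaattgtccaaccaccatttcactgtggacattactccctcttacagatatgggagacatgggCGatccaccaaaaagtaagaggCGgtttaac
Dlx1: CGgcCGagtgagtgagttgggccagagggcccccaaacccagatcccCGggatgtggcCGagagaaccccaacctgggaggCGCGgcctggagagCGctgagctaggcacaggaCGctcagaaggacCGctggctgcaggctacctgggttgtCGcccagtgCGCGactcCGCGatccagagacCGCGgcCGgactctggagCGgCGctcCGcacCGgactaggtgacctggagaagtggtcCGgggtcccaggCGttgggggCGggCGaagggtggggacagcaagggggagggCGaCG
Foxn4: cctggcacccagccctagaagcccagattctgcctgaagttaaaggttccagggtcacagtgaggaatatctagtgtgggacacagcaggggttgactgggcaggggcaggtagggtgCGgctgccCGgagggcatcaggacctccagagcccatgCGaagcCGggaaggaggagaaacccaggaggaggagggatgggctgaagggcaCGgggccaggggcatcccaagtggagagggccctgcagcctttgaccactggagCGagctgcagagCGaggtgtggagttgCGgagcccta
Serpinb13: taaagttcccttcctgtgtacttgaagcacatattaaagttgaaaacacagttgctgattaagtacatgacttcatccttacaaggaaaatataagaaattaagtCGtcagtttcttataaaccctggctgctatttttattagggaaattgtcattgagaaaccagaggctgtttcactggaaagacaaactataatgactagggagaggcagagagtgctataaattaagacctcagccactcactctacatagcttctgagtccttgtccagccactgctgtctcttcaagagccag

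RefSeq promoters were found for 88 of the 128 genes, and few were rich in CpG. A promoter was called CpG-rich at a GC content of at least 55% and a CpG count of at least 0.6 times that expected from its C and G. This held for 17 of 88 RCS-only genes (19.3%), against 61.3% of 10252 genes above 0 in every RCS library and 47.1% of 15092 genes of the table with a promoter. Genes at the low levels of this set form the nearer comparison. Among 1305 other genes above 0 in every RCS library whose median level lay between the 25th and 75th percentile of the RCS-only genes, 38.5% were CpG-rich. The 88 RCS-only genes were not held to that range, so the 88 and the 1305 were not matched in level. The 88 promoters had a median of 7.0 CpG dinucleotides in 300 bases, against 12.0 in these 1305. What sets the difference was not tested.

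Within the set, transcription factor genes were richer in CpG than the others. Of 15 transcription factor promoters 6 (40.0%) were CpG-rich, with a median of 14.0 dinucleotides (6 to 35), against 11 of 73 other promoters (15.1%), with a median of 6.0 (0 to 30). Isl1, Isl2, Dlx1, Nkx2-3, Pou3f4 and Egr4 were the 6. Foxn4, Dmbx1 and Zscan10 were not, with 8, 6 and 6 dinucleotides. The letters ACAATG, a core to which SOX factors are known to bind, stood on either strand in 7 of 88 RCS-only promoters (7.95%). This compares with 7.32% of genes above 0 in every RCS library, 9.96% of the 1305 level-limited genes and 9.51% of all 15092 promoters. The 88 genes were not held to the level range of the 1305, and of the 7 only Wfdc15b lay in it. The letters stood in 0 of the 15 transcription factor promoters. The TATA-type letters TATAAA, on either strand, stood in 11 of 88 (12.5%). The shares were 6.84% of genes above 0 in every RCS library, 9.58% of the 1305 level-limited genes and 11% of all promoters. Of the 11, only RGD1565611 and Vgf lay in the level range of the 1305.

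**Figure D3:**
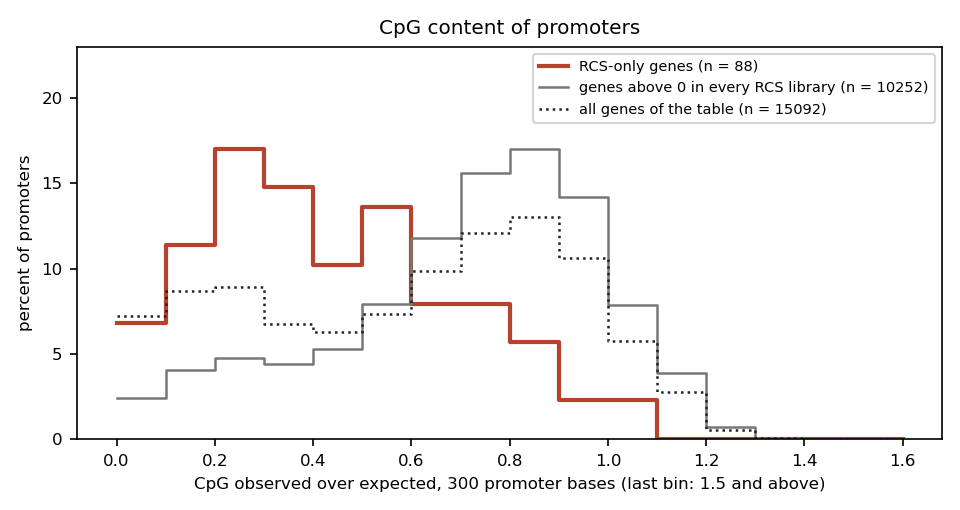
Share of promoters (percent, vertical axis) by CpG observed over expected in the 300 promoter bases (horizontal axis, bins 0.1 wide), for 88 RCS-only genes, 10252 genes above 0 in every RCS library and 15092 genes of the table. The RCS-only curve peaks to the left of the other curves, and 19.3% of its promoters were CpG-rich.

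Relatives of the RCS-only genes show whether a whole family was listed only in RCS cells. These relatives were chosen after the values were seen, and they were tested in a limma fit of log2(normalized count + 1) over 16809 genes. In that fit 76.5% of genes were called by Benjamini-Hochberg adjusted p, 32.9% as higher and 43.6% as lower in RCS cells. Quantile normalization, which lifted the median difference of all genes by 0.42 on the log2 scale, turned this split into 7770 higher and 5510 lower, or 58.5% of calls higher against 43.0%. Differences are RCS cells minus rib tissue on the log2(normalized count + 1) scale. In 16 families with 21 RCS-only genes, 34 of 46 relatives were tested, and 16 were higher, 15 lower (9 under quantile normalization) and 3 neither.

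Members of 1 family stood on opposite sides. In the Dlx family, Dlx5 had 144, 114 and 119 normalized counts in RCS cells and 76.6, 58.0 and 44.5 in rib tissue (difference 1.09, SE 0.21, adjusted p 0.00152), and Dlx6 had 141, 121 and 132 against 39.5, 28.1 and 25.8 (2.07, SE 0.19, adjusted p 2.03e-05). Dlx3, a factor of skin appendages and bone, was at 0 in every RCS library and at 99.0, 61.6 and 16 in rib tissue. Thus 4 of the 6 Dlx genes stood higher in RCS cells, 2 of them by the rule, and Dlx3 stood lower. Among LIM homeodomain genes, Lhx4, a pituitary and motor neuron factor, had 17.9, 17.3 and 20.2 in RCS cells and 4.76, 5.62 and 3.0 in rib tissue (1.86, SE 0.29, adjusted p 0.000433). Lmx1a was at 0 in every RCS library and at 25.7, 57.4 and 26.6 in rib tissue. Lhx6 had 4.98, 4.86 and 6.68 against 13.1, 10.2 and 7.26, a difference of -0.76 (adjusted p 0.0493) that was lost in 8 alternatives and turned to 1.54 under quantile normalization.

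The Zic genes divided in the same way. Zic2 had 53.5, 65.2 and 73.6 normalized counts in RCS cells and 0, 0 and 3.0 in rib tissue (5.35, SE 0.54, adjusted p 3.29e-05), and Zic4 had 34.0, 40.1 and 39.0 against 6.29, 4.10 and 2.0 (3.002, SE 0.35, adjusted p 8.33e-05). Zic1 was at 0 in every RCS library and at 18.6, 10.9 and 4.12 in rib tissue. Otx2, the partner of Otx1 in the anterior brain, had 12.7, 12.7 and 20.5 in RCS cells and 1.14, 0 and 0 in rib tissue. Emx2 was lower in RCS cells, at 3.27, 8.82 and 6.38 against 18.2, 18.5 and 14.0 (-1.39, SE 0.36, adjusted p 0.00685), and turned to 0.83 under quantile normalization. Emx1, by the rule, and Emx2 thus lay on opposite sides on the scale used here.

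Relatives of Six3 went the other way. Six4, a factor of muscle and sensory precursors, had 201, 207 and 247 normalized counts in RCS cells and 523, 563 and 586 in rib tissue (-1.35, SE 0.10, adjusted p 6.18e-06), and Six2 was at 0 in every RCS library and at 53.1, 26.5 and 19.0 in rib tissue. Nkx2-2, a ventral neural tube factor, missed the rule by a lone read, with 62.7, 61.7 and 58.1 in RCS cells and 0, 1.03 and 0 in rib tissue. Pou3f2 had 71.5, 83.7 and 81.2 in RCS cells and 0, 3.08 and 2.0 in rib tissue (5.11, SE 0.49, adjusted p 2.62e-05). Pou3f3 had 96.8, 119 and 112 in RCS cells and 362, 291 and 519 in rib tissue, lower by the same test (-1.80, SE 0.20, adjusted p 6.04e-05).

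**Figure D4:**
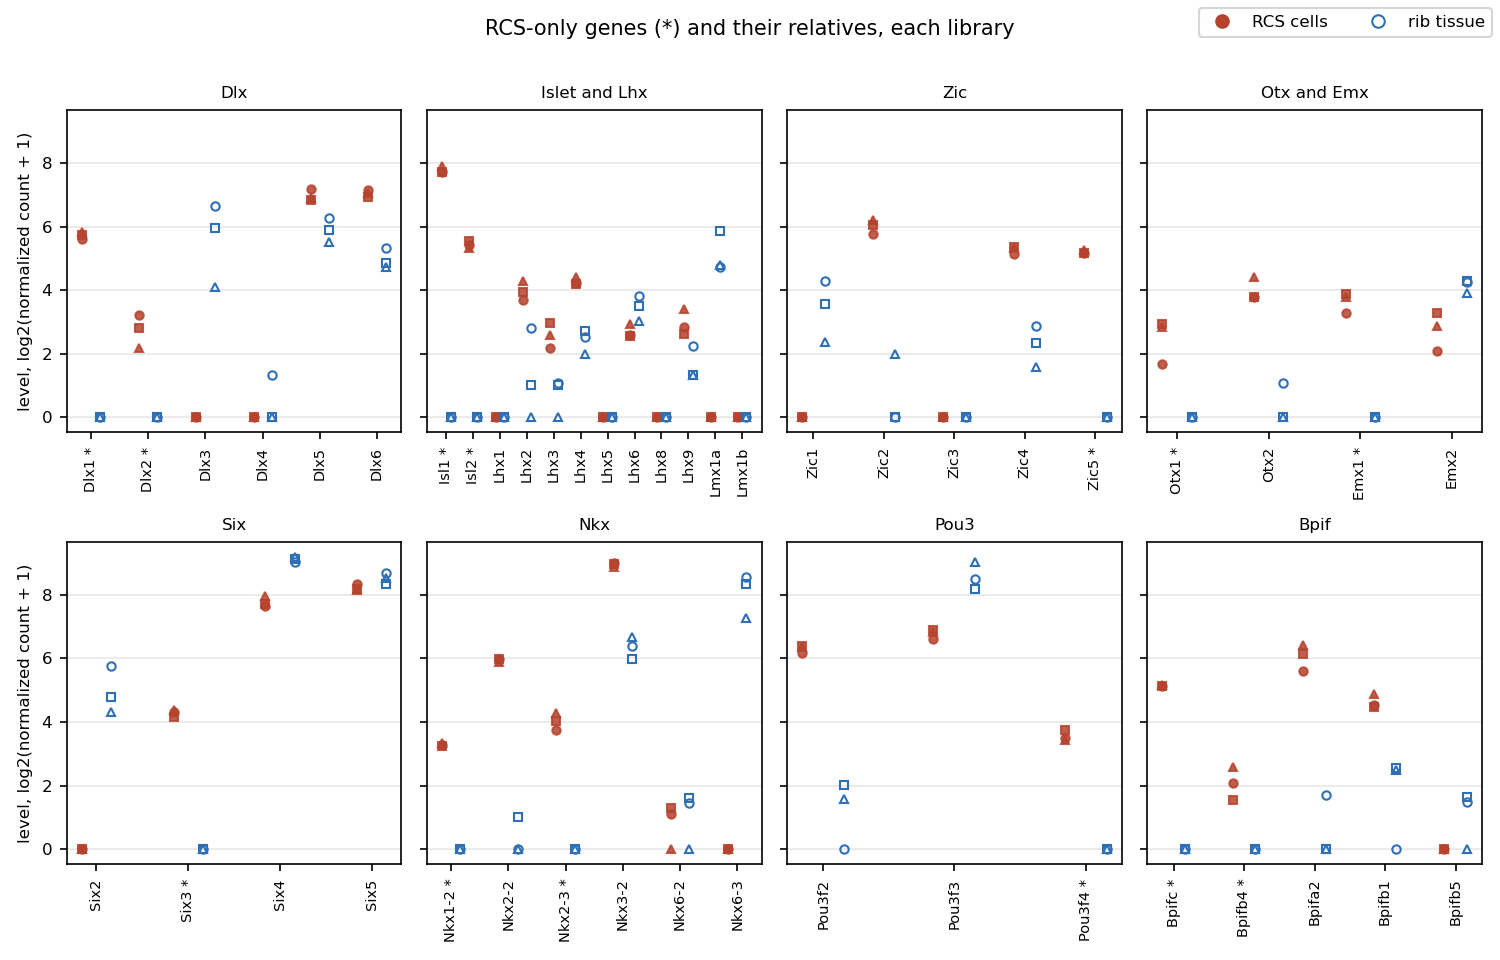
Level as log2(normalized count + 1) on the vertical axis for RCS-only genes (marked *) and their relatives in 8 families (selected genes), with each library as 1 symbol, RCS cells filled and to the left of rib tissue, which is open. Dlx3, Lmx1a, Zic1, Six2 and Nkx6-3 sit at 0 in RCS cells beside relatives that sit at 0 in rib tissue.

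The highest signalling gene was Wnt8a (ENSRNOG00000020157), a Wnt ligand of gastrulation and posterior growth, with 124, 142 and 152 normalized counts in the RCS libraries. Wnt8b, its closest relative, was at 0 in every RCS library and at 0, 0 and 2.0 in rib tissue. Gng7, a G protein gamma subunit gene known from the striatum, had 29.0, 33.4 and 43.4. Mapk15, an atypical MAP kinase gene, had 20.8, 15.3 and 13.8, and the kisspeptin receptor gene Kiss1r had 16.3, 18.2 and 11.6. All 4 were well above the limit of detection in every RCS library. The other 10 genes of this group were lower, from the G protein-coupled receptor gene Pgr15l (10.9, 5.19 and 9.92) down to the olfactory receptor gene Olr1132 (1.09, 1.04 and 1.73). Grin1, the obligatory NMDA receptor subunit, had 3.27, 4.93 and 4.25.

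Germ cell genes were led by Rad21l1 (ENSRNOG00000022335), the kleisin subunit of meiotic cohesin. It had 97.7, 97.9 and 103 normalized counts in RCS cells, while Rad21, the kleisin of dividing body cells, had 1713, 1676 and 1493 in RCS cells and 940, 971 and 928 in rib tissue (0.78, SE 0.08, adjusted p 3.88e-05). Exd1, which acts with PIWI proteins, had 12.3, 18.8 and 26.6. THEGL, a relative of a gene of haploid male germ cells, had 18.9, 18.9 and 17.01. Pxt1 (7.16, 9.96 and 11.04), Tekt4 (2.18, 5.19 and 2.59), Mageb4 (2.68, 1.04 and 2.83) and Padi6 (1.63, 3.63 and 1.26) made up the 7. Tex11 (261, 224 and 265) and Tex19.1 (5.44, 11.9 and 6.38) had the same pattern and were left out by their symbols, as were Hoxb13 (129, 142 and 148), Hoxc10, Hoxb8 and Hoxa11.

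Among epithelial and secreted products, Esrp1 (ENSRNOG00000008184), a splicing regulator of epithelial cells, had 51.0, 51.4 and 66.7 normalized counts in RCS cells. Its relative Esrp2 was detected in both groups and lower in RCS cells, with 33.3, 35.3 and 37.6 against 68.3, 80.9 and 94.8 (-1.17, SE 0.18, adjusted p 0.000394), a call lost under quantile normalization (-0.14). Bpifc, a gene of the lipid-binding BPI fold family, had 33.9, 33.7 and 34.6. Upk3a, a plaque protein of the bladder lining, had 22.4, 29.1 and 49.6, the widest spread of these. Upk2, another plaque protein, had 0, 3.62 and 2.66 in RCS cells and 0 in rib tissue. Serpinb13, a protease inhibitor of keratinocytes, had 29.9, 24.5 and 22.2, and the membrane protease gene Tmprss2 had 22.6, 20 and 16.1. The other 7 of the 12 genes had RCS medians of 2.56 to 4.17, among them Serpina1f, Defb37 and Msmb.

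Channels, transporters and enzymes were mostly near the limit. Cnga1, the cyclic nucleotide-gated channel subunit of rods, was the only 1 of 11 channel and transporter genes with 10 normalized counts in every RCS library (12.6, 17.5 and 21.9). Scnn1g, the gamma subunit of the epithelial sodium channel, had 5.99, 8.30 and 4.96. Its partner Scnn1b was lower in RCS cells, with 2.18, 1.77 and 2.23 against 19.9, 17.9 and 27.3 (-2.87, SE 0.28, adjusted p 2.72e-05), a call lost under quantile normalization (-0.32). Otop3, a proton channel gene, had 3.81, 7.11 and 8.50, the dopamine transporter gene Slc6a3 had 4.41, 5.33 and 6.17, and Slc15a5, a peptide transporter relative, had 4.07, 4.27 and 3.004. No enzyme gene of the 8 reached 10 in every RCS library. Cyp24a1, which inactivates vitamin D, was the highest with 7.47, 9.86 and 11.3, followed by Mdh1b (7.11, 9.996 and 7.79), Oas1h (5.17, 8.76 and 8.15) and Pnliprp2 (6.72, 4.58 and 7.01).

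Some entries need care because near-identical copies could share reads. Rpl39l, a ribosomal protein gene, had 163, 158 and 179 normalized counts in RCS cells, while the parent gene Rpl39 had 53.0, 53.7 and 39.4 in RCS cells and 52.1, 39.0 and 39.3 in rib tissue. The entries RGD1565415 (1.99, 1.84 and 2.83) and RGD1563835 (3.43, 1.98 and 1.42) match ribosomal protein copies in RefSeq. Polr2i, a subunit of RNA polymerase II, met the rule through a second entry with 1.09, 1.78 and 2.65, while its main entry had 54.8, 51.4 and 53.5 in RCS cells and 39.2, 33.2 and 27.8 in rib tissue. Among the 128, 5 genes share a symbol or Entrez identifier with an entry outside the set, and apart from Polr2i those other entries were at or near 0 in all libraries. For Mir93 (1.59, 1.56 and 2.08) reads of a host transcript could be included.

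The other 53 genes were given no role. They include the 2 highest RCS-only entries, NEWGENE532 (425, 343 and 410 normalized counts) and NEWGENE340 (353, 309 and 333), which the table does not annotate, and 4 more entries of that kind. RGD1564380 had 164, 165 and 164, and a second entry of that symbol, also in the set, had 20.7, 24.2 and 16.8. RGD1307595 had 140, 123 and 166. NEWGENE62 was uneven, with 6.49 in RCS cells replicate 1 against 36.8 and 36.7 in replicates 2 and 3. With ordinary symbols, Tmem59l, a membrane protein gene of neurons, had 91.9, 79.6 and 105, and Mybphl, a relative of a myosin-binding protein, had 94.8, 71.4 and 93.2. Fam48b1 had 27.8, 29.9 and 26.3, and the copine gene Cpne4 had 13.3, 23.04 and 25.5.

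Lists of genes typical of other tissues show how far the RCS-only genes stood for their class. The lists were chosen with earlier results of these data known. Of 30 epithelial genes, 22 were tested, and 3 were higher and 14 lower in RCS cells, against 32.9% higher and 43.6% lower over all genes. The 3 were Esrp1, by the rule, Krt8 and Ap1m2. Ap1m2, an epithelial sorting adaptor named after its values were seen, had 18.0, 27.8 and 23.4 in RCS cells and 0, 0 and 2.0 in rib tissue, and the keratin gene Krt8 had 752, 744 and 689 against 60.1, 74.7 and 67.9 (3.41, SE 0.11, adjusted p 5.64e-08). The defining epithelial cadherin gene Cdh1 had 2.08, 0 and 0 in RCS cells and 17.6, 27.7 and 24.5 in rib tissue, and Epcam had 2.43, 0 and 5.67 against 3.79, 4.10 and 7.0. Krt18 was at 0 in every RCS library and at 2.40, 3.08 and 0 in rib tissue, too low to be tested. Grhl3 (65.0, 63.4 and 76.2 against 67.7, 69.4 and 110) and Prss8 (24.3, 23.7 and 33.3 against 17.7, 19.6 and 29.6) did not pass, and under quantile normalization Grhl3 turned from -0.24 to 0.51 and Prss8 was called higher (1.81). Under that setting 7 epithelial genes were higher and 5 lower.

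Of 40 neuronal and synaptic genes, 25 were tested, and 5 were higher and 13 lower in RCS cells (10 and 7 under quantile normalization). Over all genes 32.9% were higher and 43.6% lower. The 5 were Grin1, by the rule, Map2 and, chosen after their values were seen, Elavl2, Slc17a7 and Syp. Map2, a microtubule protein of dendrites, had 1036, 921 and 902 normalized counts in RCS cells and 324, 424 and 469 in rib tissue (1.24, SE 0.14, adjusted p 5.79e-05). Elavl2, a neuronal RNA-binding protein gene, had 101.1, 83.1 and 89.5 against 4.80, 9.70 and 0. Vamp2, a vesicle protein, was lower, with 37.4, 29.5 and 39.6 against 244, 245 and 248 (-2.77, SE 0.14, adjusted p 8.04e-07). Uchl1 (166, 153 and 149 against 179, 149 and 217) and Mapt (73.3, 56.7 and 77.9 against 142, 120 and 52.0) did not pass, but Uchl1 was called lower without rib tissue replicate 2 (-0.34) and Mapt without rib tissue replicate 3 (-0.92). Mapt turned from -0.48 to 0.15 under quantile normalization. The neuronal markers Stmn2, Nefm, Chga and Rbfox3 were at 0 in all 6 libraries, and Snap25 and Nefl were at 0 in every RCS library. In rib tissue Snap25 and Nefl each had 0, 1.03 and 0, too low to be tested.

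LIM homeodomain factors act through cofactor proteins. Of 17 tested LIM homeobox and cofactor genes, 7 were higher in RCS cells, 2 of them by the rule, and 9 lower, against 32.9% higher and 43.6% lower over all genes. Quantile normalization gave 9 higher and 8 lower. The adaptor Ldb1, which bridges LIM factors, had 471, 441 and 419 normalized counts in RCS cells and 712, 660 and 718 in rib tissue (-0.65, SE 0.08, adjusted p 0.000105). Its partners Ssbp3 (226, 237 and 209 against 452, 432 and 511, adjusted p 1.89e-05) and Ssbp2 (154, 164 and 177 against 225, 247 and 252, adjusted p 0.00111) were lower as well. Of the 9 lower genes, 4 were at 0 in every RCS library. Among these, named after their values were seen, were the cofactor genes Ldb2 (155.8, 226 and 170.6 in rib tissue) and Ssbp4 (274.4, 219.2 and 203.3). Lmo4, a LIM-only protein that competes for Ldb1, was higher, with 186, 197 and 177 against 93.4, 96.6 and 89.2 (0.996, SE 0.10, adjusted p 4.35e-05).

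Of 26 tested limb position genes, 6 were higher, 2 of them (Isl1 and Hand2) by the rule, and 17 lower. Of the 17, 9 were at 0 in every RCS library. Among these, named after their values were seen, were Meis1 (1149, 1479 and 2093 in rib tissue) and Prrx1 (1222, 1559 and 1202). The shares over all genes were 32.9% higher and 43.6% lower. Quantile normalization gave 9 higher and 15 lower. Gdf11, a growth factor of axial patterning, was higher, with 458, 401 and 410 normalized counts in RCS cells and 170, 139 and 167 in rib tissue (1.41, SE 0.11, adjusted p 6.54e-06). Gli3, the hedgehog effector that opposes Hand2 in the limb bud, was lower, with 271, 248 and 279 against 1034, 1052 and 1444 (-2.13, SE 0.13, adjusted p 2.2e-06). Pbx2 (260, 280 and 318 against 524, 477 and 484, adjusted p 0.000103) and Pbx3 (201, 217 and 211 against 381, 417 and 526, adjusted p 8.45e-05), cofactors of Hox proteins, were lower too.

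Of 40 meiosis and germ cell genes, 21 were tested, and 5 were higher and 13 lower in RCS cells (9 and 5 under quantile normalization). Across all genes the shares were 32.9% and 43.6%. Besides Rad21l1, by the rule, the 5 were Dnd1, a germ cell RNA-binding protein gene with 40.2, 35.2 and 47.5 normalized counts in RCS cells against 16.7, 14.1 and 21.9 in rib tissue (1.19, SE 0.24, adjusted p 0.00219), and, chosen after their values were seen, Dmc1, Stra8 and Nanos2. Stra8, the inducer of meiosis (1.62, 3.80 and 6.94 in RCS cells), and Nanos2 (2.72, 1.41 and 5.46) each missed the rule by a lone read in rib tissue replicate 2. Rec8, another meiotic kleisin, was lower, with 15.4, 14.4 and 11.5 against 42.9, 33.4 and 53.0 (-1.56, SE 0.25, adjusted p 0.000544), as was Syce2 (15.0, 14.2 and 24.6 against 34.2, 28.2 and 37.5, -0.89), and under quantile normalization they turned to 0.15 and 0.77. The call of Syce2 was also lost without RCS cells replicate 1 (-0.79) or replicate 2 (-0.75). Sycp3 (79.2, 85.4 and 96.4 against 139, 116 and 231) was lower, a call lost under quantile normalization (-0.43). Another 5 of the 13 lower genes were at 0 in every RCS library. These were Stag3, Spo11, Hormad1, Tdrd9 and Nanos3, named after their values were seen. Stag3 had 15.74, 18.65 and 24.48 normalized counts in rib tissue.

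Of 18 tested immune cell markers 2 were higher in RCS cells and 13 lower, against 32.9% and 43.6% of all genes. None was an RCS-only gene. The 2, named after their values were seen, were Cd79a (12.1, 18.7 and 15.6 normalized counts in RCS cells against 0, 1.03 and 2.84 in rib tissue) and Lck (26.7, 24.7 and 29.0 against 14.2, 18.1 and 10.46). The general leukocyte marker Ptprc was at 0 in every RCS library. Csf1r (6.73, 13.0 and 11.2 against 578, 652 and 237) and Cd68 (13.4, 9.42 and 16.2 against 93.9, 80.8 and 54.8) were lower. Cd14 (56.7, 57.9 and 57.1 against 90.7, 84.7 and 94.2) was lower and turned from -0.64 to 0.11 under quantile normalization, and Kit differed by -0.51 without passing (adjusted p 0.0553) and was called lower without rib tissue replicate 1 (-0.77) and with scaling to the library median (-0.56).

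**Figure D5:**
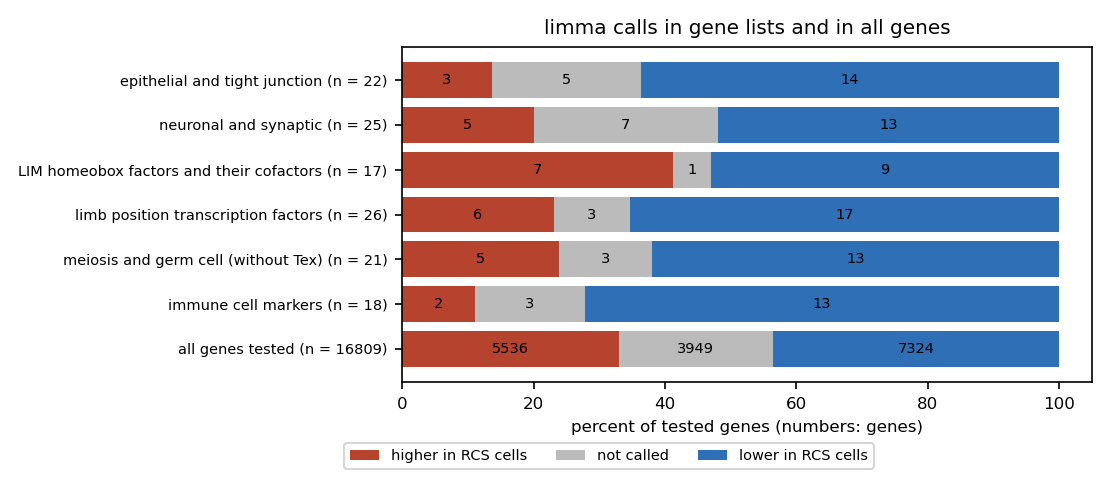
Share of tested genes (percent, horizontal axis) called higher, not called or called lower in RCS cells by limma in 6 gene lists and over all 16809 genes tested, with the number of genes in each bar. In each of the 6 lists more genes were lower than higher on this scale, as over all genes. Quantile normalization turned that order in the epithelial, neuronal, LIM and germ cell lists and over all genes. No other alternative turned it.

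The RCS-only genes were spread over the genome. In RefSeq gene order on GRCr8, the 109 matched genes lay on 21 chromosomes, with at most 13 on 1 chromosome. The same counts were not made for all genes. Only 2 pairs were next to each other among protein-coding genes, Dlx1 with Dlx2 and Rnf224 with RGD1560880. Some other neighbours missed the rule through 1 rib library. Examples, named after their values were seen, are Zic2 beside Zic5, and Oas1a and Oas1f beside Oas1h. Oas1f had 12.88, 10.96 and 15.41 normalized counts in RCS cells and 0, 1.03 and 0 in rib tissue. Of 128 other protein-coding genes that lie beside an RCS-only gene and were tested, 64 (50%) were higher in RCS cells and 40 (31.2%) lower, against 32.9% and 43.6% of all genes. The shares over all genes were not limited to protein-coding genes matched to RefSeq, so the 2 sets are not alike. Under quantile normalization 81 neighbours were higher and 23 lower, where all genes gave 7770 higher and 5510 lower. Without quantile normalization the median difference of the neighbours was 0.36, against -0.15 for all genes tested. Fbxo8 beside Hand2 (400.0, 402 and 428 normalized counts in RCS cells against 136, 173 and 137 in rib tissue) and Nme5 beside Wnt8a (21.3, 22.6 and 26.3 against 3.62, 5.27 and 9.66) were higher, and Acacb beside Foxn4 (119, 135 and 137 against 822, 830 and 398) was lower, as was Parp8 beside Isl1 (356, 380 and 373 against 589, 571 and 786). These 4 were picked after their values were seen.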

How the data were processed

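Expression was measured by RNA sequencing in 3 RCS cell and 3 rib tissue libraries. The authors deposited log2 values for 27217 genes. Per the submitters' processing notes, CASAVA 1.8, DESeq and the build rn5 were used, with no role given. The aligner, counter and strand setting were not given in the sources used here. The most frequent low deposited values, as powers of 2, fell on multiples of 1 step per library, so they were read as log2 of a count divided by 1 factor and not as counts per length. Of values of at most 10 reads, 38.6% to 54.6% lay within 0.01 of a whole read, so no count model was used. Dividing each library's total by its step gave the estimated depth, which limits what a listed 0 can show.

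RCS-only genes were found by the rule in the report. Members, roles, families and lists were chosen with earlier results of these data known. Across the table, log2(normalized count + 1) was tested with limma 3.58.1 in R 4.3.3 (intensity trend, two-sided, Benjamini-Hochberg over 16809 genes with at least 1 normalized count in 3 of 6 libraries, called under 0.05). The test planned for counts was not used, since the values were not counts. The fit was tested on simulated data. Of 17717 Entrez identifiers, 17258 matched RefSeq GRCr8, used for names, gene order and promoters.

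Named genes were the 25 highest RCS-only genes with an ordinary symbol, those in a list, up to 5 per role, the genes next to the threshold and the 4 highest genes of each list. Some items are not reported here. Others are said to be chosen after their values were seen, or belong to the families. Alternatives were quantile and median scaling, a pseudocount of 0.1, other filters, a replicate block and leaving out each library.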

Additional observations from a re-analysis of the deposited data

How the results depend on the processing

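The number of RCS-only genes depended on the rule's limits. It was 78 with at least 3 and 43 with at least 10 normalized counts in every RCS library, 254 with a value allowed in 1 rib library, 183 with 2 of 3 RCS libraries, 134 with the left-out symbols, and 141 to 197 when a library was left out, the highest without rib tissue replicate 2. Their median level of 6.55 was 18.8 under quantile normalization, 7.34 with libraries scaled to the same total, and 6.31 to 6.60 without an RCS library.

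Genes above 0 numbered 14400 to 14473 in the RCS libraries and 16565 to 17386 in the rib libraries. Quantile normalization, which gives every library the same distribution of values, moved most list counts. Higher and lower genes were then 7 and 5 in the epithelial, 10 and 7 in the neuronal, 9 and 5 in the germ cell and 5 and 1 in the chondrocyte list, and 9 relatives and 23 neighbours were lower (81 neighbours higher). With a minimum of 10 in 3 libraries, 8 neuronal genes were lower, and 3 germ cell genes higher and 6 lower, with fewer genes tested. Leaving out a library gave 1 to 2 higher chondrocyte markers in place of 2 (Matn1 and Comp). Quantile normalization reversed Lhx6 (1.54), Emx2 (0.83), Nkx6-2 (1.43), Cd14 (0.11), Col9a1 (1.82), Grhl3 (0.51), Mapt (0.15), Rec8 (0.15) and Syce2 (0.77). Leaving out a library moved Nkx6-2 between -0.74 and 0.17 (0.070 without rib tissue replicate 2) and Col9a1 between -0.36 and 0.023 (without rib tissue replicate 3). The cause of these shifts was not tested. Of 834 values of 70 genes outside the set under 12 alternatives, 791 kept direction and side of the threshold, 21 lost and 10 gained a call.

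With the replicate number as a block, 5536 genes were higher and 7340 lower, against 5536 and 7324 without, and among the named genes Kit gained a call (-0.51) and Lhx6 lost it (-0.76). Deviations of libraries sharing a number correlated at 0.064, -0.076 and 0.047, and 2 of 6 libraries correlated best with their own number. No pairing by number was seen, but a check on 3 libraries per group cannot exclude it. A listed 0 stands for up to 1.93 reads in RCS cells and 1.32 in rib tissue, so genes at a few reads could enter or leave the set by counting error.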
